A study of Mus musculus with 40 samples.

Results

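The WIS diet, which is rich in sucrose and made of purified ingredients, was compared with the NIA diet in livers of mice that could eat at any time. The members are all samples labelled ad libitum (AL), namely 6 AL-WIS and 5 AL-NIA arrays, 11 of the 40 arrays of the series. All mice were male C57BL/6J, an inbred laboratory strain, arrived at 6 weeks of age and began their diet at 5 months of age. Sucrose supplied 46% and fat 24.4% of the energy of the WIS diet, at 3.927 kcal/g, against 7.6% and 17.7% at 3.418 kcal/g for the NIA diet. By weight, sucrose made up 28.5% of the WIS diet and 3.9% of the NIA diet. No gene was altered and no agent was given. The labels put the calorie intake of AL-NIA above that of all other groups, so diet composition and energy intake cannot be told apart in this pair. The age and hour at collection are not given in the labels used here. The other 29 arrays enter as a measure of spread and as 2 further diet pairs. These are 10 CR-WIS and 9 CR-NIA mice under 30% caloric restriction (CR), and 4 MF-WIS and 6 MF-NIA mice given 1 daily portion (MF), with food at 3 pm in both regimens and portions fixed once the mice were 14 months old. AL and MF mice ate from a hopper and CR mice from the cage floor. Each array was a separate liver sample on an Illumina BeadChip, which reads transcripts by hybridisation to probes on beads, and it is the number of arrays that limits precision.

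Dietary sucrose is split into glucose and fructose, and much of the fructose is taken up by the liver, where it can be turned into glycerol and fatty acids. The carbohydrate-responsive factor ChREBP and the sterol-regulated SREBP factors drive the enzymes of that route, and the products leave the liver on lipoproteins coated with apolipoproteins. The nuclear receptors CAR and PXR sense foreign compounds and bile acids and switch on cytochrome P450 enzymes, and NRF2 switches on glutathione-conjugating enzymes. Diets made of purified ingredients and diets made of natural ones differ in plant compounds as well as in sugar and fat.

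The sequences below are the 250 bases before the start of 3 genes on which the results turn, the one gene that passed the test with and without the outlying library and the P450 genes among the 6 with the smallest p on the lower side. They are from RefSeq, build GRCm38.p6, 5′ to 3′ on the strand of the gene. Capitals mark AGGTCA and AGTTCA, half-sites that nuclear receptors bind in pairs, on either strand, so TGACCT and TGAACT count too, and the motifs do not overlap here. Of 32817 promoter windows of 250 bases, 14.03% hold the first and 11.85% the second, and 24.17% hold either. The Apoa4 window is chr9:46240594-46240843 on the + strand, Cyp2c55 chr19:39006769-39007018 on the + strand, and Cyp3a11 chr5:145879855-145880104 on the - strand.
Apoa4: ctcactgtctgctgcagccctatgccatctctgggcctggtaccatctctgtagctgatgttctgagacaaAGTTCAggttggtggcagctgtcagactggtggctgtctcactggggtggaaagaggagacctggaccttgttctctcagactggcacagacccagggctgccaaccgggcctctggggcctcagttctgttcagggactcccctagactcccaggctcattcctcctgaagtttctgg
Cyp2c55: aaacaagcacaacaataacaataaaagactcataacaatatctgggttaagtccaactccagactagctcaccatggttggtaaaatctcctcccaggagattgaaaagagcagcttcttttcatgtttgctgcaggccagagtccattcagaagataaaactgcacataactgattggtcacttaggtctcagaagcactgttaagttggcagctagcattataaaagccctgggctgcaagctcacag
Cyp3a11: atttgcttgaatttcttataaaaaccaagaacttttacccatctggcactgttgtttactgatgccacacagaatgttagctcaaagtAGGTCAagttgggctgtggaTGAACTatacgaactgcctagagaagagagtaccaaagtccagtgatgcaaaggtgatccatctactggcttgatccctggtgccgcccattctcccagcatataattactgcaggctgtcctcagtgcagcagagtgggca
The Apoa4 window holds 1 half-site, whose first base lies 179 bases before the start. The Cyp3a11 window holds 2, at 162 and 142 bases before the start, and the Cyp2c55 window holds none of these letters. A match is a description of the sequence and not a binding site.

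AL-WIS replicate 1 stood apart from the other 10 arrays of the pair. It lay at 79.36 on the first principal component, which carried 60.38% of the variance of the 11 arrays, while the others lay between -19.53 and 1.84. Its correlations over genes with the other AL-WIS arrays were 0.79 to 0.86. The differences of named genes and the list medians under AL are therefore given with all arrays and without it, while single probes and the levels beside them are with all arrays unless stated. Levels are the deposited score of a gene on an array, rescaled to log2 units, with 0 at the mean of all probes of that array and the detection floor near -0.44. Levels of different genes rest on different probes and are not compared. Of 20 hepatocyte markers 17 were measured, and the liver transport protein Ttr averaged 7.28 in AL-WIS and 7.49 in AL-NIA, while the probe for albumin (Alb) lay near the floor at -0.15 in AL-WIS and -0.14 in AL-NIA.

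Few genes passed the test of the diet under ad libitum feeding. Of 7958 genes, 2 rose in AL-WIS livers and 0 fell at a limma adjusted p (Benjamini-Hochberg) of 0.05, which is 0.0251% of the genes tested. Without AL-WIS replicate 1 the count was 1, or 0.0126%. It was 13 without AL-WIS replicate 4 and 1 without AL-WIS replicate 6, AL-NIA replicate 2 or AL-NIA replicate 4. At an unadjusted p of 0.05 the count was 1050 genes, or 13.2%, made up of 621 higher (7.8%) and 429 lower (5.39%) in AL-WIS. Without replicate 1 it was 721 genes (9.06%), with 400 higher (5.03%) and 321 lower (4.03%). The counts of list members at that p below are to be read beside these shares. The split of these genes turned on the scaling. Higher in AL-WIS were 59.1% of them with the deposited scaling, 47.9% after quantile normalization and 20.8% after median and MAD scaling. The last moved the median of all genes by -0.12, so differences are read beside that of all genes. Under it list medians moved by up to 0.48 relative to all genes, so that reading does not remove the dependence on scaling. A median gene had a 95% interval of ± 0.28 on the log2 scale, and 5% of genes had one wider than ± 0.66. The 6 AL-WIS arrays and the 5 AL-NIA arrays did not overlap for 83 genes, or 1.04%, of which 40 were higher (0.503%) and 43 lower (0.54%) in AL-WIS. Without replicate 1 they did not overlap for 152 genes, or 1.91%.

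Apoa4 was the gene with the largest difference. It encodes apolipoprotein A-IV, a protein of chylomicrons and high-density lipoproteins made by intestine and, in mice, also by liver. Its levels in AL-WIS livers were 5.72, 5.50, 4.86, 4.86, 5.07 and 6.19, against 2.25, 3.06, 2.72, 3.31 and 4.09 in AL-NIA livers. Every AL-WIS array lay above every AL-NIA array. The means were 5.37 ± 0.53 (SD, n = 6) in AL-WIS and 3.09 ± 0.69 (SD, n = 5) in AL-NIA, a log2 difference of 2.28 (95% interval 1.52 to 3.05) or 4.86-fold, with a limma adjusted p of 0.00422. Without AL-WIS replicate 1 the difference was 2.21 with an adjusted p of 0.0175. The call was lost with only the 11 AL arrays in the fit (difference 2.28, adjusted p 0.147) and with median and MAD scaling (1.84, adjusted p 0.184).

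Apoa4 lies in a cluster with Apoa1, Apoc3 and Apoa5, and none of these neighbours passed the test. Apoa1 encodes the main protein of high-density lipoproteins and averaged 7.45 ± 0.40 in AL-WIS and 7.46 ± 0.45 in AL-NIA (SD), a difference of -0.01 with a 95% interval of -0.63 to 0.61, and of 0.01 without replicate 1. Apoc3, an inhibitor of triglyceride clearance, averaged 7.31 ± 0.49 in AL-WIS and 7.60 ± 0.30 in AL-NIA, a difference of -0.30 with an interval of -0.81 to 0.21, and of -0.17 without replicate 1. Apoa5, which promotes triglyceride clearance, averaged 3.06 ± 0.94 in AL-WIS and 3.32 ± 0.16 in AL-NIA, a difference of -0.27 with an interval of -0.93 to 0.39, and of 0.11 without replicate 1. With all arrays the upper bounds of all 3 intervals lay below the lower bound for Apoa4. Of the 19 measured genes of 26 in the list of apolipoproteins and lipoprotein handling, Apoa4 alone passed, and the list's median difference was -0.04 with all arrays and 0.11 without replicate 1, beside 0.02 and 0.02 for all genes.

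No other member of that list passed the test. Lrp1, a receptor that takes up remnant lipoproteins, averaged 2.73 ± 0.20 in AL-WIS and 2.29 ± 0.18 in AL-NIA, and differed by 0.44 (adjusted p 0.249, limma) and by 0.37 without replicate 1. Angptl4, a PPAR-alpha target that inhibits lipoprotein lipase in fasting, had levels of 2.23, 3.11, 2.88, 1.21, 1.86 and 3.61 in AL-WIS and 1.27, 2.55, 1.86, 0.04 and 1.13 in AL-NIA. Its groups overlapped, and its difference of 1.11 (SE 0.43) had an adjusted p of 0.319, with 1.16 without replicate 1. Apoc2, the activator of lipoprotein lipase, differed by 0.30 (SE 0.16), and by 0.40 without replicate 1, and its second probe by 0.14 and 0.32.

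Tma7, a small protein named for its association with the translation machinery in yeast, was the second gene that rose. Its levels were 1.40, 0.72, 0.77, 1.63, 1.16 and 1.37 in AL-WIS and 0.41, -0.02, 0.65, -0.02 and 0.38 in AL-NIA. The groups did not overlap, though the lowest AL-WIS array and the highest AL-NIA array were close. The log2 difference was 0.90 (SE 0.17), or 1.86-fold, with a limma adjusted p of 0.0178. The call was lost without AL-WIS replicate 1 (0.85, adjusted p 0.0773), without AL-WIS replicate 6 (adjusted p 0.0503), without AL-NIA replicate 2 (0.116) and without AL-NIA replicate 4 (0.0757). It was also lost with only the AL arrays in the fit (0.449), with median and MAD scaling (0.184) and with the replicate block (0.116).

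The other genes with the smallest p on the side of higher levels in AL-WIS did not pass the test. Trim25, a ubiquitin ligase of the antiviral RNA-sensing pathway, had levels of 0.82, 0.68, 0.74, 0.72, 0.54 and 1.01 in AL-WIS and 0.09, 0.09, 0.21, 0.15 and 0.27 in AL-NIA, with no overlap. Its difference was 0.59 (adjusted p 0.0685, limma), and 0.58 without replicate 1 (adjusted p 0.113). Fam174c differed by 0.54 (adjusted p 0.0685), Oser1, an oxidative-stress responsive gene, by 0.65 (0.0750), and Top2b, a DNA topoisomerase, by 0.56 (0.0750), each without overlap between the groups. Without replicate 1 these differences were 0.45, 0.66 and 0.56. Without replicate 1 the list of smallest p also held Zfand1 at 0.47, Ank, a pyrophosphate transport protein of cells, at 0.49, and Ei24 at 0.56. With all arrays they stood at 0.43, 0.44 and 0.36, and the groups overlapped for Ank and Ei24.

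**Figure D1:**
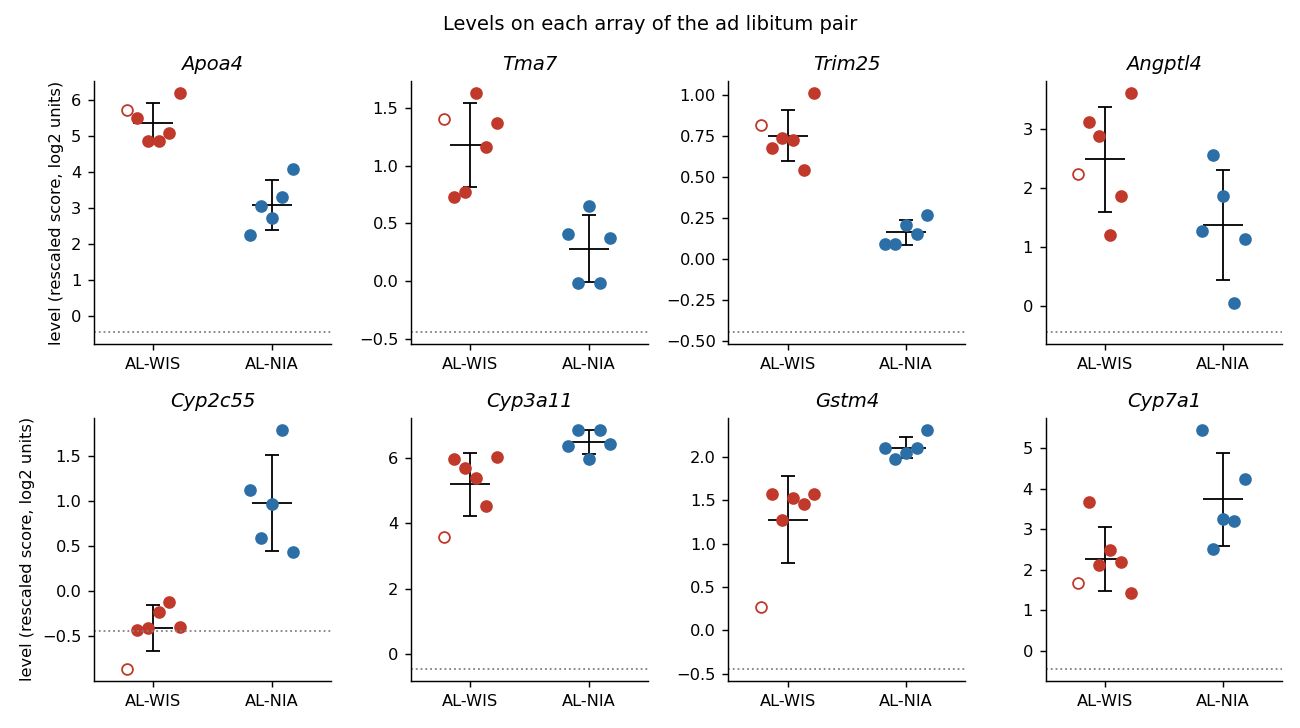
Levels of 8 genes (rescaled score, log2 units) on each AL-WIS array (red, replicate 1 open) and each AL-NIA array (blue). Bars are the mean ± SD over 6 and 5 arrays and the dotted line is the detection floor near -0.44. Apoa4, Tma7 and Trim25 show no overlap with AL-WIS above, Cyp2c55 and Gstm4 no overlap with AL-WIS below, and Angptl4, Cyp3a11 and Cyp7a1 overlap.

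The list of CAR and PXR targets had a negative median, and none of its genes passed the test. Of 25 measured genes of 35, 8 were lower and 0 higher at an unadjusted p of 0.05, beside 5.39% and 7.8% of all genes. The list's median difference was -0.47 with all arrays and -0.20 without AL-WIS replicate 1, where 6 were lower. Cyp2c55, a fatty-acid epoxygenase that PXR and CAR agonists induce in mice, had levels of -0.86, -0.42, -0.41, -0.23, -0.12 and -0.39 in AL-WIS and 1.13, 0.59, 0.97, 1.80 and 0.44 in AL-NIA. All AL-WIS arrays lay near the detection floor, with detection on 5 of 6, and below all AL-NIA arrays. That difference was -1.39 (SE 0.29, adjusted p 0.0602, limma), and -1.30 without replicate 1 (adjusted p 0.111).

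Cyp3a11, the main P450 of mouse liver for the breakdown of foreign compounds and steroids and a classical PXR target, had levels of 3.58, 5.98, 5.68, 5.38, 4.54 and 6.02 in AL-WIS and 6.36, 6.84, 5.96, 6.85 and 6.43 in AL-NIA. Replicate 1 was the lowest AL-WIS array, and 2 others lay just above the lowest AL-NIA array. The difference was -1.29 (SE 0.29, adjusted p 0.0685), and -0.97 (SE 0.24, adjusted p 0.115) without replicate 1. Cyp3a25, a related P450, differed by -1.24 (SE 0.36), and by -0.68 (SE 0.20) without replicate 1. The probes of the Cyp3a and Gst families may share transcripts of near-identical genes, so these values are uncertain as to the member.

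The mean level of the NRF2 and glutathione list lay lower on every AL-WIS array than on every AL-NIA array. Of 34 measured genes of 40, none passed the adjusted test and 10 were lower and 0 higher at an unadjusted p of 0.05, and 9 were lower without replicate 1. Of all genes 5.39% were lower and 7.8% higher, and 4.03% were lower without replicate 1. The list's mean level, as a difference from its mean over 40 arrays, was -0.51, -0.15, -0.38, -0.24, -0.22 and -0.16 in AL-WIS and 0.00, 0.01, -0.09, 0.18 and 0.13 in AL-NIA. The same held for 2 of the 47 lists, the other being the list of aryl hydrocarbon receptor targets, which shares 3 measured genes, Gsta1, Gsta2 and Nqo1, with the NRF2 list. The NRF2 list also shares genes with the CAR and PXR list. Gstm1 is in both, and the lowest value of the CAR and PXR list, -1.46, is that of Gsta2. The counts of lower genes in these lists are therefore not separate. The median difference of the NRF2 list was -0.34 with all arrays and -0.25 without replicate 1.

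Within that list Gstm4 had the smallest p. It encodes a mu-class glutathione transferase and its levels were 0.27, 1.57, 1.27, 1.52, 1.45 and 1.57 in AL-WIS and 2.10, 1.98, 2.04, 2.10 and 2.31 in AL-NIA. The groups did not overlap, and apart from replicate 1 the AL-WIS arrays were tightly grouped. Its difference was -0.83 (SE 0.21, adjusted p 0.113, limma), and -0.63 without replicate 1. Gstm1, the abundant mu-class enzyme of liver, averaged 5.30 ± 0.56 in AL-WIS and 6.11 ± 0.25 in AL-NIA, and differed by -0.82 and by -0.61 without replicate 1. Gsta1 and Gsta2, alpha-class enzymes that electrophiles induce, had the largest negative differences of the list, -1.60 (SE 0.74) and -1.46 (SE 0.62), with wide errors, and -1.76 and -1.46 without replicate 1. The errors come from the spread shared by all 6 groups and not from the AL arrays alone. The SD of Gsta1 was 0.64 in AL-WIS, 1.05 in AL-NIA and 3.02 in MF-WIS. For Gsta2 it was 0.59, 0.57 and 2.81 in the same order. Gsta2 ranged from 0.23 to 2.04 in AL-WIS and from 2.13 to 3.58 in AL-NIA, without overlap. Gstt1 differed by -0.61 and Gstm6 by -0.74, and by -0.29 and -0.37 without replicate 1. Ugt1a6a, a glucuronosyltransferase of the aryl hydrocarbon receptor list, differed by -0.04 with all arrays and by 0.38 without replicate 1. Its 2 other probes gave -0.28 and -0.34 with all arrays and -0.01 and -0.06 without replicate 1, so the probes differ in the value without it.

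Genes of sugar use showed no shared direction. Of 23 measured genes of 33 in the list of ChREBP targets, glycolysis and fructose handling, none passed, 3 were higher and 1 lower at an unadjusted p of 0.05 (2 and 1 without replicate 1), and the median was 0.02 with all arrays and 0.06 without replicate 1. Mlx, the dimer partner of ChREBP, had levels of 0.23, 0.20, 0.20, 0.62, 0.24 and 0.41 in AL-WIS and -0.26, -0.12, -0.03, 0.08 and 0.26 in AL-NIA. It differed by 0.33 and by 0.35 without replicate 1, and a second Mlx probe by 0.06. Rgs16, a G-protein regulator and ChREBP target, had levels of 0.65, 3.77, 3.73, 3.44, 2.64 and 4.42 in AL-WIS and 1.89, 2.45, 2.36, 0.04 and 3.38 in AL-NIA. The SD of Rgs16 was 1.34 in AL-WIS and 1.23 in AL-NIA, beside a difference of 1.09 (SE 0.57), and of 1.58 (SE 0.53) without replicate 1. Tkt, transketolase of the pentose phosphate pathway, differed by -0.35 (SE 0.14), and by -0.40 without replicate 1.

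Lipid synthesis genes had negative medians that shrank without AL-WIS replicate 1. For de novo fatty acid synthesis the median of 17 genes was -0.29 with all arrays and -0.06 without replicate 1, with 0 higher and 1 lower at an unadjusted p of 0.05, and 0 lower without replicate 1. That gene was Slc25a1, the mitochondrial citrate carrier, at 2.08 on replicate 1, between 3.25 and 3.50 on the other AL-WIS arrays and between 3.44 and 3.62 in AL-NIA. It differed by -0.41 and by -0.20 without replicate 1, while its second probe gave -0.02 and 0.14. Acsl3, an acyl-CoA synthetase, differed by -0.43 (SE 0.23), and by -0.25 (SE 0.22) without replicate 1. For desaturation and elongation the median of 14 genes was -0.28 and -0.05. Fads2, the delta-6 desaturase, stood at -0.15 on replicate 1 and differed by 0.13 (SE 0.32) with all arrays and by 0.58 (SE 0.22) without it. Fads6 differed by -0.27 (SE 0.08) and by -0.24 without replicate 1, with no overlap, at levels close to the detection floor. For triglyceride synthesis and lipid droplets the median of 28 genes was -0.08 and 0.00. In that list Cd36, a fatty acid transporter, was near the floor in both groups (detected on 3 of 6 AL-WIS arrays) and differed by 0.21 and 0.27 without replicate 1. Gpat4, a glycerol-phosphate acyltransferase, differed by -0.47 (SE 0.19), and by -0.31 (SE 0.18) without replicate 1. A second Gpat4 probe, near the detection floor, gave -0.03 with all arrays and 0.02 without replicate 1.

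The 18 measured cholesterol synthesis genes had a median of -0.41 with all arrays and -0.10 without replicate 1, and 1 was higher and 2 lower at an unadjusted p of 0.05 (1 and 0 without replicate 1). Pmvk, a kinase of the mevalonate pathway, differed by -0.77 (SE 0.29), and by -0.48 (SE 0.25) without replicate 1. Srebf2, the master factor of the pathway, differed by 0.41 (SE 0.17) and by 0.41 without replicate 1. Among 8 sterol export genes, the canalicular sterol transporters Abcg5 and Abcg8 differed by -0.69 (SE 0.32) and -0.81 (SE 0.36), and by -0.28 and -0.33 without replicate 1, on which they stood at 1.40 and 0.38. Npc2, a lysosomal sterol-binding protein, differed by 0.43 (SE 0.17), and by 0.25 (SE 0.14) without replicate 1. The 20 bile acid genes had a median of -0.37 with all arrays and -0.12 without replicate 1, and 6 and then 2 were lower at an unadjusted p of 0.05.

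Bile acid synthesis genes stood among these. Cyp7a1, the rate-limiting enzyme of bile acid synthesis, had levels of 1.68, 3.67, 2.11, 2.49, 2.19 and 1.43 in AL-WIS and 5.45, 2.52, 3.26, 3.20 and 4.24 in AL-NIA. One AL-WIS array lay within the AL-NIA range, and the difference of -1.47 (SE 0.58) had an adjusted p of 0.326 (limma), with -1.36 (SE 0.61) without replicate 1. Cyp27a1, of the alternative pathway, differed by -0.66 (SE 0.22) and by -0.37 (SE 0.16) without replicate 1, and its 2 other probes by -0.72 and -0.71.

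None of the genes of fasting metabolism passed the test. G6pc, which releases glucose from the liver, had levels of 2.55, 3.22, 2.97, 5.19, 3.58 and 3.43 in AL-WIS and 3.85, 5.09, 4.66, 5.24 and 5.18 in AL-NIA, and AL-WIS replicate 4 was as high as the AL-NIA arrays. Its difference was -1.31 (SE 0.54, adjusted p 0.330, limma), and -1.13 (SE 0.55) without replicate 1. Irs2, an insulin receptor substrate, differed by -0.50 (SE 0.21), and by -0.49 without replicate 1. The 14 gluconeogenesis genes had a median of -0.09 with all arrays and 0.00 without replicate 1, and 3 and then 2 were lower at an unadjusted p of 0.05. Of 13 glycogen genes 1 was higher at that p, Gyg, glycogenin, at 0.32 (SE 0.11) and 0.21 (SE 0.10) without replicate 1. Gyg lay near the detection floor, with means of -0.16 in AL-WIS and -0.48 in AL-NIA. Its second probe gave 0.11 with all arrays and 0.01 without replicate 1. Ugp2, which makes UDP-glucose, differed by 0.30 (SE 0.20) and by 0.43 (SE 0.20) without replicate 1.

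The 32 measured PPAR-alpha targets had a median of -0.14 with all arrays and 0.12 without replicate 1, so the sign turned with 1 library. Hadhb, a subunit of the mitochondrial trifunctional protein of beta-oxidation, differed by 0.31 (SE 0.15) and by 0.46 (SE 0.13) without replicate 1, and by -0.12 under median and MAD scaling. Creb3l3, a liver factor of triglyceride metabolism, differed by 0.06 (SE 0.25) and 0.37 (SE 0.19). The 15 clock genes had a median of 0.08 and 0.19, with Rora at -0.50 (SE 0.17) and -0.31 (SE 0.15) without replicate 1, and Nfil3 at -0.79 (SE 0.43) and -0.64 (SE 0.44). Since the hour of collection is not given, the part of time of day in these values was not tested.

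The medians of the amino acid and one-carbon lists turned on replicate 1. The 43 genes of the urea cycle and amino acid breakdown had a median of -0.32 with all arrays and -0.01 without it. At an unadjusted p of 0.05, 8 and then 2 were lower, beside 5.39% and 4.03% of all genes. At that p 1 and then 4 were higher, beside 7.8% and 5.03%. Afmid, of the tryptophan pathway, had levels of 0.15, 2.08, 1.57, 1.78, 1.96 and 1.63 in AL-WIS and 2.54, 2.36, 2.45, 2.17 and 2.34 in AL-NIA. Its groups did not overlap, and its difference was -0.84 (SE 0.22, adjusted p 0.137, limma) and -0.56 without replicate 1, with the 6 other probes between -0.87 and -0.43. Ass1, of the urea cycle, differed by -0.58 (SE 0.20) and by -0.32 without replicate 1. Glul, glutamine synthetase of the hepatocytes around the central vein, differed by 0.76 (SE 0.34) and by 1.06 (SE 0.31), and Slc25a13, the aspartate-glutamate carrier citrin, by 0.40 and 0.63, while the other Slc25a13 probe gave 0.01 and 0.15.

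The 26 genes of methionine, one-carbon, choline and taurine metabolism had a median of -0.39 with all arrays and -0.07 without replicate 1, and 9 and then 3 were lower at an unadjusted p of 0.05, beside 5.39% and 4.03% of all genes. Csad, the rate-limiting enzyme of taurine synthesis, had levels of 0.26, 1.03, 0.89, 1.99, 1.77 and 0.84 in AL-WIS and 1.56, 3.67, 1.84, 3.06 and 2.10 in AL-NIA. Its groups overlapped, and the difference was -1.32 (SE 0.38, adjusted p 0.165, limma) and -1.14 without replicate 1. Pcyt1a, the rate-limiting enzyme of phosphatidylcholine synthesis from choline, had levels of 1.58, 2.57, 2.20, 2.23, 2.66 and 2.19 in AL-WIS and 3.26, 2.94, 3.12, 2.63 and 3.08 in AL-NIA. It differed by -0.77 (SE 0.19, adjusted p 0.113), and by -0.64 without replicate 1.

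In the ATF4 and amino acid response list 2 of 15 measured genes were higher in AL-WIS without overlap, beside 0.503% of all genes. Slc3a2, the heavy chain of amino acid exchangers, had levels of 2.14, 0.65, 0.69, 1.22, 1.03 and 0.80 in AL-WIS and 0.27, 0.59, 0.33, 0.26 and 0.47 in AL-NIA. Nupr1, a stress-induced chromatin protein, had levels of 2.16, 0.18, 0.65, -0.06, 0.69 and 0.54 in AL-WIS and -0.54, -0.41, -0.26, -0.14 and -0.29 in AL-NIA, the last group near the detection floor. The differences were 0.71 (SE 0.17, adjusted p 0.104, limma) and 1.02 (SE 0.26, adjusted p 0.116), and 0.50 and 0.73 without replicate 1, the highest array for both. The list's 15 genes had a median of 0.08 and 0.04. The 20 genes of the unfolded protein response had a median of -0.05 in both fits. Syvn1, a ubiquitin ligase of the endoplasmic reticulum, and Dnajb9, a chaperone of the same compartment, differed by -0.64 (SE 0.20) and -0.60 (SE 0.23), and by -0.55 and -0.56 without replicate 1.

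None of the respiratory chain or proteasome genes passed the test. Of 69 oxidative phosphorylation genes 3 were higher and 5 lower at an unadjusted p of 0.05, and 5 higher and 2 lower without replicate 1, with medians of -0.09 and 0.03. Ndufb4 of complex I differed by 0.74 (SE 0.22, adjusted p 0.191, limma) and by 0.88 (SE 0.22, adjusted p 0.113) without replicate 1. Cox7b of complex IV differed by 0.48 and 0.69, Atp5e of complex V by 0.41 and 0.52, and Ndufa10 of complex I by -0.36 and -0.24. Of 28 proteasome genes 7 were lower and 0 higher at an unadjusted p of 0.05, beside 5.39% and 7.8% of all genes, and 4 were lower without replicate 1. Their medians were -0.12 and -0.10.

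Psmb4, a subunit of the proteasome core, had levels of 4.86, 5.10, 5.16, 4.83, 4.89 and 5.03 in AL-WIS and 5.31, 5.59, 5.31, 5.30 and 5.33 in AL-NIA, with no overlap. Its difference was -0.39 (SE 0.10, adjusted p 0.113, limma) and -0.37 without replicate 1. Psmd11, of the regulatory particle, differed by -0.46 on its brighter probe (-0.33 without replicate 1) and by 0.26 on the other, so the probes disagree in sign. The 23 autophagy and lysosome genes had a median of 0.09 and 0.10, with Gabarapl1, an autophagosome protein, at 0.53 (SE 0.25) and 0.75 (SE 0.23) without replicate 1, and Ctsd, a lysosomal protease, at 0.26 (SE 0.10) and 0.19.

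**Figure D2:**
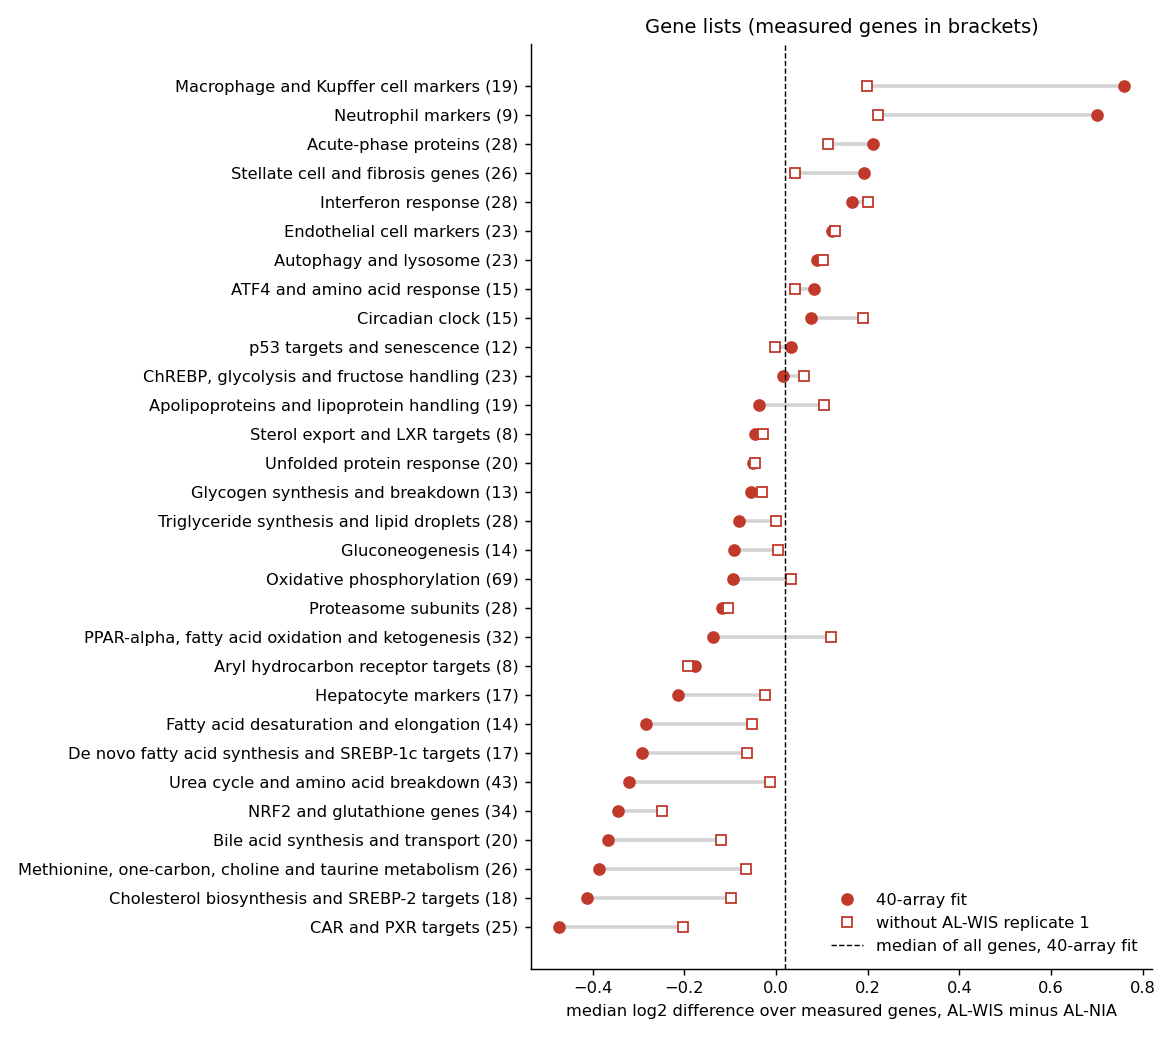
Median log2 difference (AL-WIS minus AL-NIA) over the measured genes of each list described, with all arrays (filled circles) and without AL-WIS replicate 1 (open squares). The macrophage list stands at 0.76 and 0.20 in these fits, the CAR and PXR list at -0.47 and -0.20, and the NRF2 list at -0.34 and -0.25, and the dashed line is the median of all genes, 0.02.

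Macrophage and neutrophil markers were the lists with the highest medians with all arrays, and their mean levels were highest on AL-WIS replicate 1. The 19 measured macrophage and Kupffer cell markers of 27 had a median of 0.76 with all arrays and 0.20 without replicate 1, with 6 and then 0 higher at an unadjusted p of 0.05. Their mean level, relative to the mean over 40 arrays, was 3.33 on replicate 1, -0.21 to 1.01 on the other AL-WIS arrays and -0.26 to 0.63 in AL-NIA. The 9 measured of 15 neutrophil markers stood at 2.63 on replicate 1, -0.29 to 1.26 on the other AL-WIS arrays and -0.28 to 0.31 in AL-NIA, with medians of 0.70 and 0.22. The T and NK cell list (5 measured of 20) and the B cell list (2 of 13) were instead highest on AL-WIS replicate 5, at 0.88 and 1.19, with 0.70 and 0.45 on replicate 1. The hepatocyte markers, 17 measured of 20, stood at -1.04 on replicate 1, -0.30 to 0.16 on the other AL-WIS arrays and -0.13 to 0.33 in AL-NIA. In a bulk sample, fewer cells of a type and less RNA per cell cannot be told apart. The part of these cells in the metabolic results above was not tested.

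Among single markers, Clec4f, a lectin of Kupffer cells, was at 5.38 on replicate 1, 2.01 to 3.11 on the other AL-WIS arrays and 1.56 to 2.52 in AL-NIA, a difference of 1.01 and of 0.55 without replicate 1. Slc11a1, a metal transporter of phagocytes, was at 5.81, 3.29 to 3.97 and 3.10 to 3.50 in the same order, and differed by 0.61 and 0.24. The neutrophil granule gene Ltf had levels of 2.05, -0.63, 0.68, -0.89, 1.99 and -0.63 in AL-WIS and -0.88 to -0.21 in AL-NIA, so 3 AL-WIS arrays were high and 3 lay below the detection floor. Camp, another granule gene, was high on the same 3 AL-WIS arrays, at 1.16, 0.21 and 0.89. Ltf differed by 1.00 and Camp by 0.70, and by 0.68 and 0.46 without replicate 1. S100a8, a calprotectin subunit of neutrophils and of the acute-phase list, was also highest on those 3, at 4.98, 2.94 and 3.73, against 0.35 to 0.86 on the other AL-WIS arrays and 0.04 to 1.89 in AL-NIA, a difference of 1.32 (SE 0.63) and of 0.78 (SE 0.59) without replicate 1. Mt2, a metallothionein of the acute-phase list, differed by 1.09 (SE 0.42) and by 0.81 without replicate 1, and its groups overlapped. The 28 acute-phase genes had a median of 0.21 with all arrays and 0.11 without replicate 1.

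With all arrays, the endothelial, stellate and interferon lists had lower medians than the macrophage and neutrophil lists. Without replicate 1 the interferon median was close to theirs, 0.20 beside 0.20 and 0.22. The 23 endothelial markers had a median of 0.12 and 0.13 without replicate 1, and 5 and then 2 were higher at an unadjusted p of 0.05. Eng, a TGF-beta co-receptor of endothelium, had levels of 1.10, 0.83, 0.97, 0.92, 1.16 and 0.80 in AL-WIS and 0.24, 0.27, 0.39, 0.92 and 0.33 in AL-NIA, of which AL-NIA replicate 4 alone reached the AL-WIS range. Its difference was 0.53 (SE 0.14, adjusted p 0.137, limma) and 0.50 without replicate 1. Egfl7, a secreted endothelial protein, differed by 0.44 (SE 0.16), and by 0.30 without replicate 1. The 26 stellate cell and fibrosis genes had a median of 0.19 and 0.04, with Col3a1 at 0.60 (SE 0.24) and 0.44 without replicate 1, and Tgfb1 at 0.53 (SE 0.21) and 0.20. Apart from replicate 1, at 1.555, most Tgfb1 levels lay near or below the detection floor. They were -0.77 to -0.09 on the other AL-WIS arrays and -0.77 to -0.38 in AL-NIA. Of 28 interferon response genes 6 and then 4 were higher and 0 lower at an unadjusted p of 0.05, beside 7.8% and 5.03% of all genes higher, and the medians were 0.17 and 0.20. Ifit2 differed by 0.39 (SE 0.13) and Oasl2 by 0.77 (SE 0.31), and by 0.39 and 0.62 without replicate 1, and both overlapped between the groups. Ifit2 averaged 0.10 in AL-WIS and -0.29 in AL-NIA, the latter near the detection floor.

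**Figure D3:**
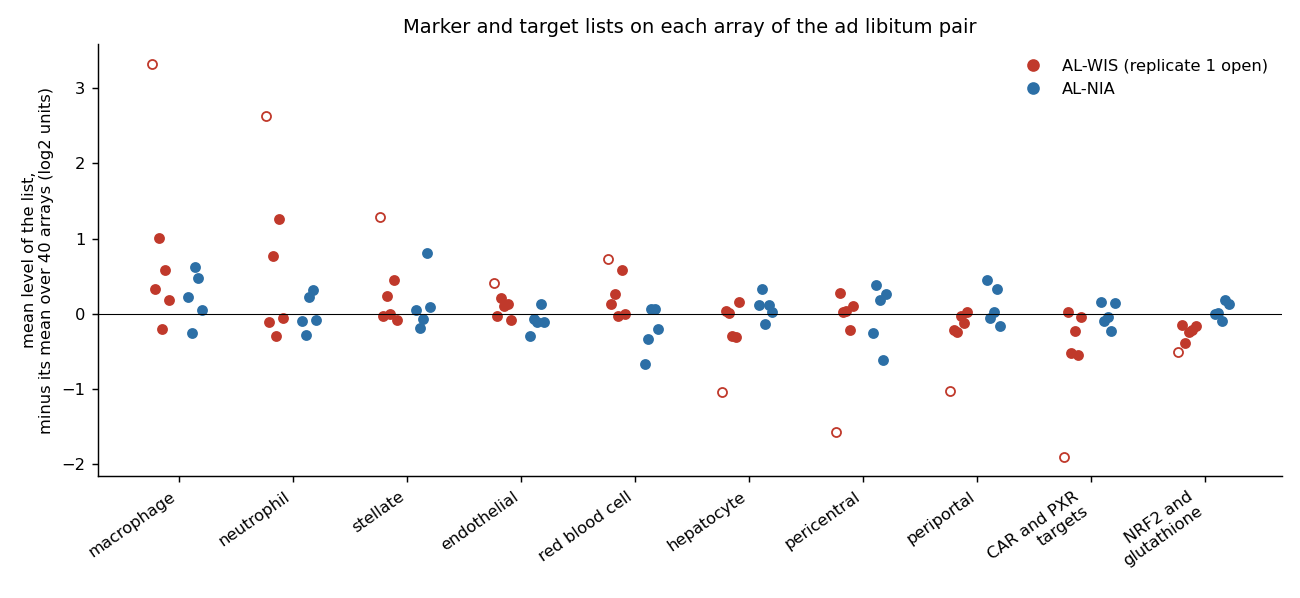
Mean level of 10 gene lists on each array, as a difference from the list's mean over 40 arrays (log2 units), for AL-WIS (red, replicate 1 open) and AL-NIA (blue). Replicate 1 stands at 3.33 for macrophage and -1.04 for hepatocyte markers, and for the NRF2 and glutathione list all AL-WIS arrays lie below all AL-NIA arrays.

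The genes with the smallest p on the side of lower levels in AL-WIS belonged to several processes, and none passed the test. Polr3g, a subunit of RNA polymerase III, differed by -0.36 (adjusted p 0.0685, limma) and by -0.33 without replicate 1, with AL-WIS levels at or near the detection floor. Echdc3, of the enoyl-CoA hydratase family, had levels of 0.30, 1.60, 1.66, 1.54, 1.43 and 1.74 in AL-WIS and 2.42, 2.23, 2.01, 2.04 and 1.74 in AL-NIA, and differed by -0.71 (adjusted p 0.0685) and by -0.49 without replicate 1. Thnsl2, a threonine synthase-like protein, differed by -0.58 (adjusted p 0.0772) and its second probe by -0.64, and Uxt, a prefoldin-like protein, by -0.40 (adjusted p 0.0698) while its second probe gave -0.09. Without replicate 1 Thnsl2 stood at -0.45 and Uxt at -0.31. Without replicate 1 the smallest p were those of Lsm12 at -0.54, Echdc3, Cyp2c55, Srm at -0.54, Rrp12 at -0.59 and Gpn2 at -0.36. With all arrays Lsm12 stood at -0.49, Srm at -0.39, Rrp12 at -0.43 and Gpn2 at -0.34. Srm, spermidine synthase, stood at 1.43 on replicate 1 and at 0.44 to 0.68 on the other AL-WIS arrays, against 0.78 to 1.43 in AL-NIA. Of 4 Lsm12 probes 2 were at -0.49 and -0.46 and 2 at 0.06 and 0.16.

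The same limma test over the 10659 single probes of these genes, an alternative added after the data were seen, called 5, or 0.0469%, of which 3 were higher and 2 lower. They were the probes of Apoa4 (adjusted p 0.00555), Tma7 (0.0233) and Cyp2c55 (0.0477), the second Thnsl2 probe (0.0425) and a probe of Clta, a clathrin light chain, at 0.64 (0.0477), which is named after its value was seen. The brighter Clta probe differed by 0.31 (adjusted p 0.484), and by 0.03 without replicate 1. Without replicate 1 that test called 1 probe, or 0.00938%, that of Apoa4 (adjusted p 0.0230), and the other 4 had adjusted p of 0.0933.

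The CR and MF diet pairs share no array with the ad libitum pair, though all come from 1 fit. Under CR 223 genes passed the adjusted test, or 2.8%, and under MF 0 by limma, with 843 at an unadjusted p of 0.05 (10.6%). Without AL-WIS replicate 1, which enters only through the shared spread, the counts were 427 (5.37%) and 10 (0.126%), and without CR-NIA replicate 1 they were 480 and 0. Apoa4 differed by 2.35 (SE 0.29, adjusted p 5.43e-06) under CR and by 2.05 (SE 0.40, adjusted p 0.0833) under MF, beside 2.28 under AL. Its means were 5.37 in AL-WIS, 5.31 in CR-WIS and 5.57 in MF-WIS, against 3.09 in AL-NIA, 2.96 in CR-NIA and 3.52 in MF-NIA. Within each diet these means lay within 1 SD of each other. Cyp2c55 differed by -1.34 under CR (adjusted p 0.000458) and -1.21 under MF (0.222), Cyp3a11 by -1.49 (0.000102) and -0.86 (0.311), and Csad by -1.24 (0.0123) and -1.36 (0.268). The median of the CAR and PXR list was -0.47 under AL, -0.47 under CR and -0.47 under MF, and that of the NRF2 list was -0.34, -0.12 and 0.08. Without AL-WIS replicate 1 the values under AL were -0.20 and -0.25. The MF values rest on 4 MF-WIS arrays that spread widely for some of these genes. On them Gsta2 ranged from 0.15 to 6.90 and Gsta1 from -0.72 to 6.58. The part of single MF-WIS arrays in the MF medians was not tested. Tma7 differed by 0.10 under CR and 0.09 under MF, and its difference between AL and CR was not past the threshold (adjusted p 0.155).

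**Figure D4:**
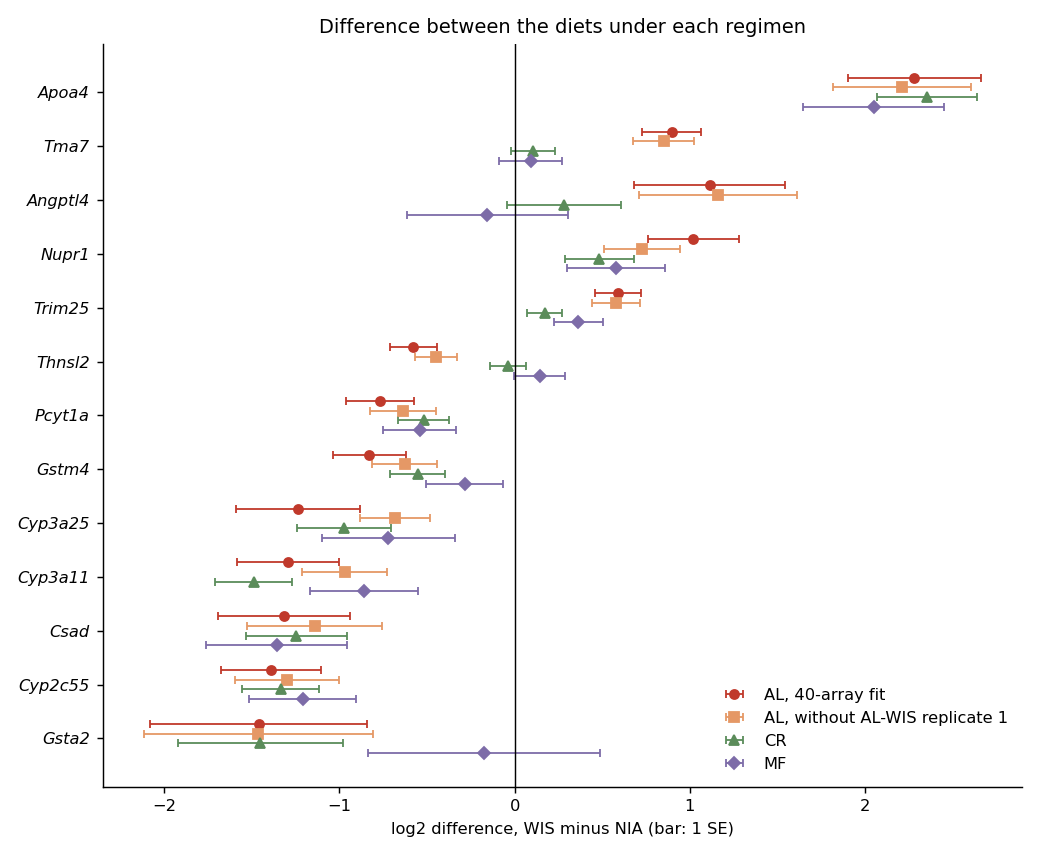
Log2 difference between WIS and NIA (points, bars 1 SE) for 13 genes under AL with all arrays, AL without AL-WIS replicate 1, CR and MF. Apoa4 lies between 2.05 and 2.35 in all 4, Cyp2c55 between -1.39 and -1.21, and Tma7 at 0.90 and 0.85 under AL, 0.10 under CR and 0.09 under MF.

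The genes called under CR were also looked at in the ad libitum pair. Of the 119 (1.5% of all genes) that rose under CR, 74 (62.2%) had a positive difference under AL, where 54.2% of all genes did, and Apoa4 alone was called. Of the 104 (1.31%) that fell under CR, 69 (66.3%) had a negative difference under AL, where 45.8% of all genes did, and none was called. Their median differences under AL were 0.06 and -0.08 (0.05 and -0.05 without replicate 1), against 0.35 and -0.41 under CR, the contrast that chose them.

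The diet difference under AL itself differed from that under CR for 3 genes, 0.0377% of those tested, and from that under MF for 0 genes by limma, with 805 (10.1%) and 771 (9.69%) at an unadjusted p of 0.05. Ccng1, cyclin G1, a p53 target, ranged from 1.77 to 2.25 in AL-WIS and from 1.06 to 1.66 in AL-NIA, without overlap, and averaged 1.46 ± 0.20 in CR-WIS and 1.81 ± 0.30 in CR-NIA (SD, n = 10 and 9). The diet difference was 0.55 under AL (0.50 without AL-WIS replicate 1) and -0.35 under CR, and these differed by 0.90 (SE 0.17, adjusted p 0.0335, limma). Its other probes gave 0.37 and 0.07 under AL. Rabggta, a subunit of the enzyme that attaches lipid anchors to Rab proteins, differed between the diets by -0.36 under AL and 0.35 under CR, and Sh3bgrl, a small thioredoxin-like protein, by 0.51 under AL and -0.52 under CR, each with an adjusted p of 0.0335 for the difference of differences. Without AL-WIS replicate 1 these stood at -0.30 and 0.40 under AL. All 3 lost that call without AL-NIA replicate 1, 2 or 4 and without AL-WIS replicate 4, 5 or 6, at adjusted p between 0.0532 and 0.111. Without CR-NIA replicate 1, whose scores no signal column used matched, the count was 53. Sh3bgrl also lost it without AL-WIS replicate 3, and Rabggta and Sh3bgrl without AL-NIA replicate 5. All 3 also lost it with median and MAD scaling (adjusted p 0.169 to 0.308) and with no detection filter (0.0515), Rabggta and Sh3bgrl with the replicate block (0.170), and Ccng1 with the mean of its probes (0.110). Of 12 measured genes of the p53 list, Ccng1 alone was higher at an unadjusted p of 0.05 under AL, and Bbc3, a p53 target that promotes cell death, differed by 0.33 (SE 0.26) and by 0.46 without replicate 1. A second Bbc3 probe, near the detection floor, gave -0.06 with all arrays and -0.05 without replicate 1.

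**Figure D5:**
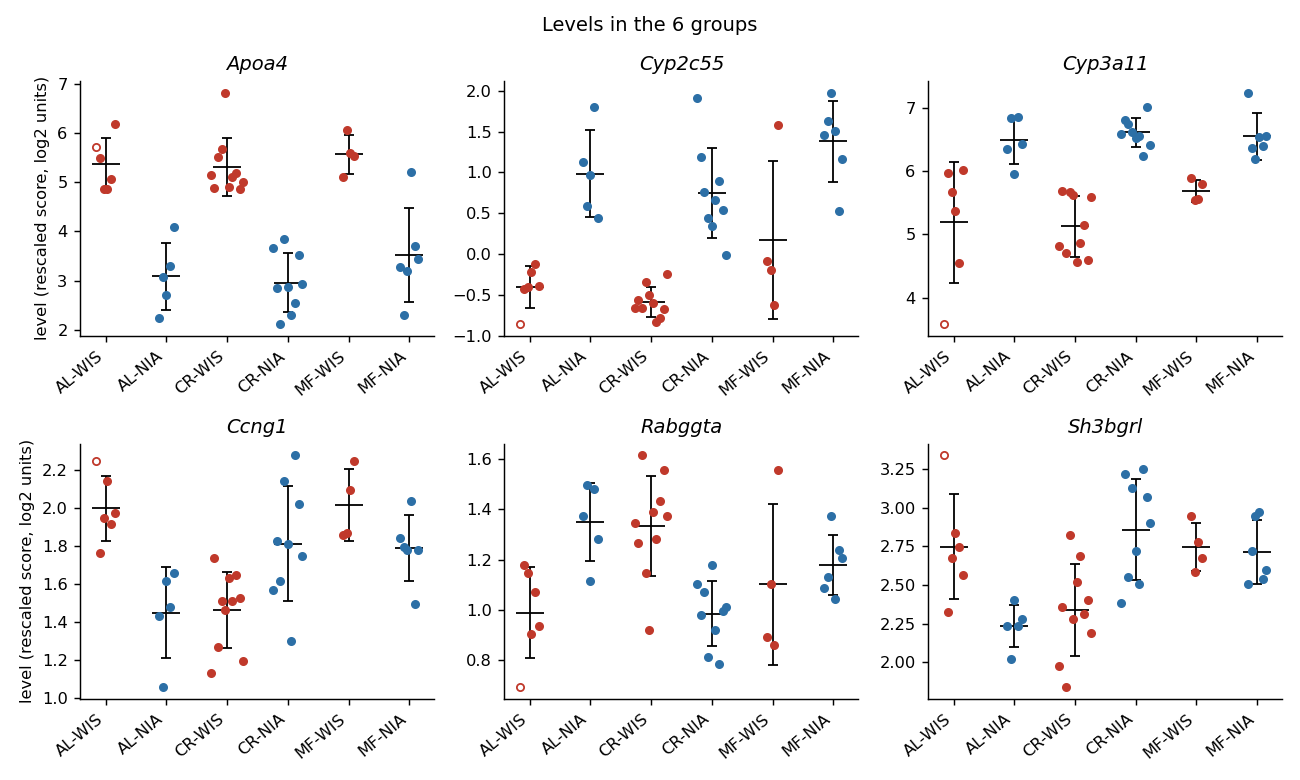
Levels of 6 genes (rescaled score, log2 units) on all 40 arrays by group, WIS in red and NIA in blue, AL-WIS replicate 1 open, with mean ± SD. For Apoa4 the WIS groups average 5.31 to 5.57 and the NIA groups 2.96 to 3.52, and for Ccng1, Rabggta and Sh3bgrl the order of WIS and NIA is opposite under AL and CR.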

How the data were processed

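Liver RNA was measured on 40 Illumina arrays, grouped by their labels. In the value table the authors deposited a score for every probe, whose mean is 0 and SD 1 on each array. The deposited signal table gives an intensity and a detection p-value per probe, per the file headers. The submitters' processing notes name GenomeStudio 2011.1. Of the steps behind the scores, the sources used here say nothing more. Each of 34 signal columns, taken to log2 and set to mean 0 and SD 1, matched the scores of an array of its group within 0.01. In the signal table, 6 columns are headed AL-NIA, for 5 labelled samples. They were not used (34 were), and matching them to samples by their values was not tried, so AL-NIA has no detection data here. The plan's intensity-based normalization was therefore not run. Of CR-NIA the signal table held fewer columns than there are labelled samples. No signal column used matched the scores of CR-NIA replicate 1, so its label was not checked against signals.

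Scores were multiplied by 1.51, the median SD of log2 signal over 34 columns. Diet differences on this scale had a slope of 0.90 against log2 signals under CR and 0.90 under MF, so folds are approximate. Those of dim genes may be understated, which was not tested. A probe was kept if 4 or more of 34 arrays had a detection p-value below 0.01, which left 11334 of 25697. These arrays include AL-WIS and no AL-NIA array. A probe detected only in AL-WIS could pass, and one detected only in AL-NIA could not. The platform annotation named the genes, with no symbol for 1719 probes and several for 0. Each of 7958 genes was represented by its brightest probe, chosen among several for 1993. AL-WIS arrays detected 9447 to 11199 probes.

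limma 3.58.1 (R 4.3.3) fitted 1 mean per group over 40 arrays, and over 39 without AL-WIS replicate 1, with Benjamini-Hochberg adjustment over all genes. The 47 gene lists held 1141 genes, of which 858 were measured. Lists are described by counts and medians. The comparison, its members and the lists were chosen with earlier results of these data known, and which lists to describe was decided after their values were seen. Named are up to 12 genes past the threshold per direction in each fit, filled up to 6 with the smallest p, per list described up to 4 genes by smallest p in either fit, genes past the threshold in a difference of diet effects, and the neighbours of Apoa4. The fit was tested on simulated data. Figures were drawn with matplotlib 3.10.9. The labels give separate samples but not how they relate, so p-values measure the spread between these samples.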

Additional observations from a re-analysis of the deposited data

Results flagged for a closer look

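Dixon's test, the gap of the highest or lowest array to its nearest neighbour over the range of the group, was run on 204 groups of arrays, the AL-WIS and AL-NIA arrays of the named genes and marker lists. Chance flags about 1 in 20 groups where groups are independent and not chosen by their values, and 31 exceeded the critical value for their number of arrays. These groups share the same arrays, and most of the genes were named by smallest p with or without AL-WIS replicate 1. The number of flags therefore cannot be judged against that rate. Of the 26 flags among genes, 22 were AL-WIS replicate 1. In that library the ratios were 0.89 for Gstm6, 0.819 for Slc25a1, 0.789 for Echdc3, 0.785 for Gstt1, 0.767 for Gstm4, 0.758 for Srm, 0.747 for Fads2, 0.734 for Afmid, 0.73 for Slc11a1 and 0.723 for Ugt1a6a. Lower ratios were 0.708 for Tgfb1, 0.707 for Abcg8, 0.698 for Uxt, 0.695 for Cyp27a1, 0.694 for Abcg5, 0.686 for Cyp3a25 and 0.673 for Clec4f. The lowest were 0.662 for Rrp12, 0.66 for Nupr1, 0.646 for Psmd11, 0.643 for Ass1 and 0.628 for Hadhb. Of the list means, that library stood out at 0.743 for periportal and 0.732 for pericentral hepatocyte genes, 0.707 for CAR and PXR targets and 0.656 for macrophage markers. Among AL-NIA arrays, Psmb4 reached 0.895 on replicate 2, Gstm6 0.784 on replicate 1, and Eng 0.778, Egfl7 0.722 and the stellate cell list 0.719 on replicate 4.

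The diet difference itself differed between AL and CR for 3 genes, by 0.903 for Ccng1, by -0.7092 for Rabggta and by 1.0315 for Sh3bgrl on the log2 scale (AL minus CR). The mean over all Ccng1 probes gave 0.63 with a limma adjusted p of 0.11.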

How the results depend on the processing

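Over all named genes and alternatives, the AL diet difference kept its direction and side of the threshold 2040 times, gained the call 45 times, lost it 9 times and turned in sign 14 times. Only Apoa4 and Tma7 could lose it, and they kept it in 22 and 17 of 24 alternatives. For the other named genes, staying uncalled counts as kept. Under AL 2 genes passed, and 1 without AL-WIS replicate 1. Leaving out 1 array gave 1 to 13 and 0 to 8, and for the other counts 0 to 53 (AL minus CR, 3), 213 to 480 (CR, 223) and 0 to 10 (MF, 0). With only AL arrays the AL counts were 0 and 0, with 514 and 725 genes at an unadjusted p of 0.05. In the order AL, AL without replicate 1, AL minus CR, CR and MF, array weights gave 26, 21, 82, 976 and 36, and quantile normalization 3, 7, 14, 225 and 3. Median and MAD scaling gave 1, 0, 0, 184 and 7, no detection filter 2, 0, 0, 196 and 0, and the mean of probes 4 under AL. AL minus MF gave 0 throughout. Alternatives added after the data were seen left out AL-WIS and CR-NIA replicate 1 together (8 under AL, 74, 741 and 15 for AL minus CR, CR and MF), or also MF-WIS replicate 4 (15 under AL, then 132, 881 and 1), and tested single probes (5 under AL, and 1 without replicate 1). The replicate block gave 1, 0, 1, 120 and 0. Same-numbered AL arrays correlated at -0.26 to 0.50 and 2 of 5 best with their own number, so the numbers were not taken as pairs. Cyp2c55 passed in 10 of the alternatives, at adjusted p of 0.00412 to 0.049. Of 30 list medians, 1 turned in sign under quantile normalization and 5 under median and MAD scaling. Relative to the median of all genes, the largest move of a list median was 0.09 and 0.48. Median and MAD scaling turned Fads2 (-0.0418), Hadhb (-0.1234) and Creb3l3 (-0.1393). Leaving out 1 array gave -0.0544 to 0.5797 for Fads2, -0.1183 to 0.3744 for Creb3l3 and -0.2204 to 0.3805 for Ugt1a6a, which array weights put at 0.2195 and both added sets of left-out arrays at 0.3805. The cause was not tested. Normalization from intensities and slide as a block were not run, and signal over background is not known for AL-NIA.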
